A study of Mus musculus with 8 samples.

Results

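The untreated baseline of the mouse neuro-intermediate lobe, the part of the pituitary that holds the melanotropes, was described from the 2 wild-type (WT) libraries among the 8 libraries of the series. The members are the WT columns of the count and expression tables, taken by their labels, and every gene of those columns was used. The study asked which regulators set the secretory capacity of melanotropes, and its other 6 libraries came from mice with transgenes against Creb3l2, XBP1 or both, which are not analysed here. Each WT library was made from a pool of 5 dissected, snap-frozen lobes of C57B6 mice without a transgene or treatment, and the study's methods give male mice at 3 months of age. Total RNA was extracted and, per the labels, depleted of ribosomal RNA before sequencing. The labels call the cells melanotropes, but the tissue was the whole dissected lobe, so pituicytes, axon endings, vessels and adhering anterior lobe could also contribute transcripts. The count table listed 48526 genes, of which 21760 were annotated as protein-coding, and its WT columns summed to 33878050 and 32644110 counts. The pools are 2 separate samples of the tissue, so every SD below has n = 2, and no test between groups was run. The libraries stood apart in part, with more Pomc in library 2 and more globin, vessel and immediate early transcripts in library 1. Both values are therefore given for most results. In whole tissue, fewer cells of a type and less RNA per cell cannot be told apart.

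Melanotropes make proopiomelanocortin (POMC), a prohormone that enters the endoplasmic reticulum (ER), passes the Golgi and is cut in secretory granules by prohormone convertases into alpha-melanocyte-stimulating hormone and beta-endorphin. Dopamine from hypothalamic axons holds their secretion in check through D2 receptors. The posterior part of the same lobe contains pituicytes, the local glia, and the endings of oxytocin and vasopressin axons whose cell bodies lie in the hypothalamus.

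Levels are given in TPM, a per-length scale of transcript abundance, that is, the deposited FPKM of a gene divided by the sum over protein-coding genes and multiplied by 1000000, with library 1 before library 2. At a minimum of 1 TPM in both libraries, 13243 protein-coding genes were expressed, 60.9% of all those listed, with a median of 21.7 TPM. Of these, 9189 reached 10 TPM, 1341 reached 100 TPM and 62 reached 1000 TPM in both libraries. Gene lists were chosen for known roles, so their counts of expressed members are a description, to be read beside the 60.9% of all protein-coding genes. The transcripts were concentrated in few genes. The 10 most abundant genes held 29.3% ± 4.93 (SD, n = 2) of protein-coding transcripts, 25.8% in library 1 and 32.8% in library 2. The 100 most abundant held 40.2% ± 4.51 (SD, n = 2), and 395 genes in library 1 and 226 in library 2 sufficed to hold 50% of all transcripts. With Pomc left out, the 10 most abundant of the other genes held 5.76% and 6.63%, and 911 and 835 genes were needed to reach 50%. Without Pomc the libraries still differed at the top, where the most abundant gene, Gh, held 1.18% and 1.88%, and the first 1000 genes held 51.7% and 53.2%.

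**Figure D1:**
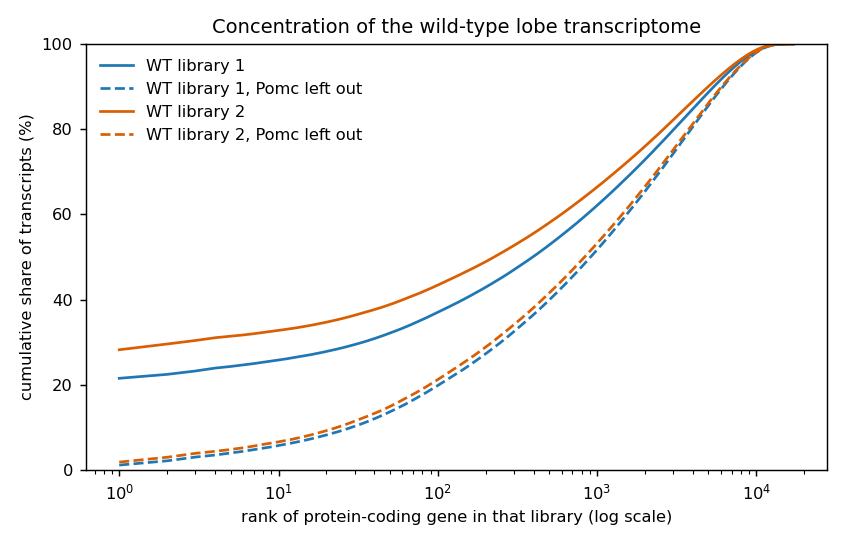
Cumulative share of protein-coding transcripts (percent) against gene rank on a log axis, for WT library 1 (blue) and WT library 2 (orange), with Pomc (solid lines) and with Pomc left out (dashed lines). The solid lines start at 21.5% and 28.2%, the share of Pomc alone, while the dashed lines start at 1.18% and 1.88%.

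Pomc (ENSMUSG00000020660, chromosome 12, 3954951 to 3960642 on the plus strand of GRCm38) was the most abundant protein-coding transcript measured, where mitochondrially encoded genes had 0 counts. It stood at 215438 and 282458 TPM, that is, 21.5% and 28.2% of protein-coding transcripts (mean 24.9% ± 4.74, SD, n = 2). In reads, 3562530 and 4750010 counts fell on it. These were 10.52% of all counts in library 1 (Wilson 95% interval 10.51% to 10.53%) and 14.55% in library 2 (14.54% to 14.56%), and such intervals cover counting error only, since reads without molecular identifiers are not independent molecules. Computed from counts and annotated exon length, the Pomc share was 31.2%, and with all genes of the FPKM table in the denominator it was 15.6%. On the TPM scale the Pomc level was 23.3 and 20.9 times that of Gh, 27.4 and 34.5 times that of Gnas and 83.9 and 97.0 times that of Chga. The promoter window of Pomc is shown because the gene holds the largest share of the protein-coding transcripts measured. It spans 250 bases before to 50 bases after the start listed by RefSeq on GRCm38.p6 (chr12:3954695-3954994, plus strand), and capitals mark TATAAA, 25 bases before the start, and the reverse complement of ACGTG, 58 bases before it.
Pomc: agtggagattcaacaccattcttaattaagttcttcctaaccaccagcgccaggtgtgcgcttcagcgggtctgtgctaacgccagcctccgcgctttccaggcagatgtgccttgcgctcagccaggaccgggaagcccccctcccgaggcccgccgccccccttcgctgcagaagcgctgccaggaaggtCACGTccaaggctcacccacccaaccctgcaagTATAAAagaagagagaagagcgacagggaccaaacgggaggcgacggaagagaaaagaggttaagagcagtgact
TATAAA on either strand was present in 14.2% of all 27025 genes' windows of the same length and ACGTG in 19.7%, so neither is rare, and a match is a description of letters, not of binding.

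The genes behind Pomc were of few kinds. Of the 30 most abundant protein-coding genes, 14 encoded cytosolic ribosomal proteins, 4 granule cargo or prohormone processing enzymes, 2 elongation factors, 2 ER chaperones and 2 anterior lobe hormones. This make-up belongs to the FPKM table. From counts per exon length, 21 of the 30 genes were the same, but 7 encoded members of the ribosomal protein list and 6 granule cargo or processing enzymes. Gh, growth hormone, ranked second with 9247 and 13490.2 TPM, and Prl, prolactin, ranked 11 with 2442 and 2007 TPM. Gh was higher in library 2 and Prl in library 1. Gnas, which encodes the stimulatory G protein alpha subunit from a locus with several imprinted transcripts, ranked 3 with 7852 and 8176 TPM. Its exons overlap those of 2 antisense genes, and from counts per exon length it ranked 11. Eef1a1, which brings aminoacyl-tRNA to the ribosome, followed with 6861 and 6535 TPM, and Eef2, which drives translocation, reached 1834 and 1896 TPM. Chga and Scg2, granins that pack granule contents, ranked 9 and 10 with 2567 and 2913 TPM and 2469 and 2236 TPM. Hspa5, the ER chaperone BiP, stood at 1993 and 1983 TPM and Calr, calreticulin, at 1395 and 1641 TPM. Others in the top 30 were the prohormone convertase gene Pcsk2 (1567 and 2075 TPM), carboxypeptidase E gene Cpe (1749.8 and 1699 TPM), the glycolytic enzyme gene Aldoa (1620.3 and 1627 TPM), the beta-actin gene Actb (1612 and 1592 TPM) and Resp18, a neuroendocrine protein of the secretory pathway (1505 and 1537 TPM). The beta-globin gene Hbb-bs also ranked 23, with 2369.9 and 955 TPM, and its libraries were farther apart than those of any other gene in the top 30. Of these 30 genes, 10 share exon sequence with another annotated gene, so their counts are uncertain. For Gnas, Pcsk2, Aldoa and Resp18 the other genes lie only on the other strand. Any effect there depends on the strand setting of the counting, which is not given.

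By counts, genes that are not protein-coding took 4.3% and 5.2% of the reads. When ranked by share of counts over all gene types, Pomc was followed by Rn7sk, the small nuclear RNA that holds back transcription elongation, with 1.21% and 1.61%, and by Gm26917, a lincRNA, with 0.801% and 1.30%. Rpph1, the RNA of ribonuclease P, had 0.505% and 0.840%. Gnas, Eef1a1, Gh, Pcsk2 and Eef2 were the other protein-coding genes among the 10 with most reads. Rn18s-rs5, an 18S ribosomal RNA copy, had 0.576% and 0.254%. Library 2 was higher for Rn7sk, Gm26917 and Rpph1 and lower for the 18S copy. Gm26917 and Rn18s-rs5 lie next to each other on chromosome 17, at 39843013 to 39846341 on the plus strand and 39846353 to 39848827 on the minus strand. Rmrp, the RNA of the ribonuclease MRP, had 33047 and 56494 counts and the nuclear lncRNA Malat1 had 52821 and 36458 counts. Leaving out small non-coding RNA genes and ribosomal RNA genes, the 18S copy included, brought the non-coding share from 4.75% ± 0.633 (SD, n = 2) to 2.06%. Gm26917 remained in that share. The 37 mitochondrially encoded genes of the count table had 0 counts in both libraries.

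Ribosomal proteins had the largest sum of the functional lists. The cytosolic ribosomal protein genes summed to 8.38% and 7.89% of protein-coding transcripts (mean 8.13% ± 0.35, SD, n = 2), with 80 of 83 at 1 TPM or more and a median of 868 and 810.3 TPM. From counts per exon length the same list came to 4.65%. Of the 100 most abundant protein-coding genes, 47 belonged to it, and 26 from counts per exon length. The list entry Rps3a could not be matched, so Rps3a1, at 998 and 1095 TPM, is in neither the sum nor these counts. On the FPKM scale Rps21 was highest with 3787 and 3464 TPM, then Rpl13a with 3653 and 3041 TPM, Rplp1 with 3189.5 and 2877 TPM, Rps27 with 3132 and 2774 TPM, Rps15 with 2036 and 2002 TPM and Rps9 with 2001 and 1971 TPM. The order depended on the table, and from counts per exon length Rplp1 was first, then Rps15, with Rps21 after them. Rpl13a is uncertain, since only 779 and 745 counts were assigned to it and its exons overlap Flt3l and 2 small RNA genes. The 3 members under 1 TPM were the paralogs Rpl39l, Rpl3l and Rpl10l, of which Rpl10l was listed at 0 in both libraries. Translation factors summed to 1.8% and 1.7%, with 67 of 69 expressed. Eef1a1, at 6861 and 6535 TPM, was 18.9 and 18.2 times its paralog Eef1a2, at 364 and 359 TPM, which is the form of neurons and muscle. Eef1b2 had 1055 and 949.7 TPM and the helicase Eif4a2 871 and 670.4 TPM. The 43 genes listed as aminoacyl-tRNA synthetases include related genes that are not synthetases, such as Polg2, a subunit of the mitochondrial DNA polymerase, and Lrrc47. All were at 1 TPM or more in both libraries, although Aarsd1 (47.1 and 49.5 TPM) had only 3 and 1 counts and is uncertain. Together they made 0.247% and 0.238%, led by Sars (265 and 289 TPM) and Eprs (282 and 187 TPM). All 63 mitochondrial ribosomal protein genes were expressed too, with a sum of 0.474% and 0.438% and a median of 59.9 and 59.8 TPM, well under that of the cytosolic set.

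Genes of the early secretory route were widely expressed. Of the 139 matched members of 7 lists, from translocation to the coats and cargo receptors, 135 were at 1 TPM or more in both libraries, beside 60.9% of all protein-coding genes. Together they held 2.72% and 2.71% of protein-coding transcripts (mean 2.71% ± 0.0042, SD, n = 2), with a median member at 133 and 138 TPM, against 21.7 TPM over all expressed protein-coding genes. ER chaperones and disulfide isomerases made up the largest share, 0.992% and 1.04%, with all 28 matched members expressed. After Hspa5 and Calr came Hsp90b1, the ER form of HSP90 (938 and 869 TPM), P4hb, protein disulfide isomerase (709 and 796 TPM), Canx, calnexin (693 and 704 TPM), and Manf, an ER-resident stress protein (469 and 529.7 TPM). Lowest was the isomerase gene Pdia5, with 7.77 and 9.14 TPM. The oxidase genes Ero1l and Ero1lb were also low, with 26.3 and 21.1 TPM and 24 and 25.3 TPM.

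Translocation and signal peptidase genes summed to 0.406% and 0.383%, with 23 of 24 expressed. Sec61b, a subunit of the translocon, led them with 426 and 426 TPM, followed by the signal peptidase subunit genes Spcs1 (379 and 324 TPM) and Spcs2 (309 and 290.2 TPM) and the signal recognition particle gene Srp14 (344 and 269.9 TPM). The translocon paralogs differed, with Sec61a1 at 251 and 246 TPM and Sec61a2 at 12.9 and 10.3 TPM. N-glycosylation genes reached 0.361% and 0.364%, and all 17 were expressed. The oligosaccharyltransferase subunits Rpn1 (484 and 534 TPM), Rpn2 (406 and 418 TPM) and Dad1 (366 and 421 TPM) were the highest. Its catalytic subunits were lower, with Stt3a at 189 and 169 TPM and Stt3b at 89.6 and 80.2 TPM. Genes of ER-associated degradation summed to 0.169% and 0.159%. Herpud1, a membrane scaffold of that machinery, led with 279 and 265 TPM, and Vcp, the ATPase that extracts its clients, had 178 and 186 TPM. Syvn1, its ubiquitin ligase, and Derl3 stood at only 23.1 and 28.9 TPM and 6.3 and 9.12 TPM.

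COPII coat genes, which carry cargo out of the ER, summed to 0.164% and 0.158%, and COPI coat genes, which return it, to 0.327% and 0.316%. In COPII the GTPase gene Sar1a (386 and 346 TPM) exceeded Sar1b (131 and 114 TPM), and Sec23b (189 and 204 TPM) exceeded Sec23a (76.5 and 60.3 TPM). Its cargo adaptors Sec24a to Sec24d lay between 11.5 and 65.8 TPM, with Sec24d highest and Sec24a lowest in both libraries. The 2 members under 1 TPM were Sec16b and Sec31b. Their paralogs Sec16a and Sec31a had 82.5 and 90.5 TPM and 167 and 171 TPM. All 17 COPI genes were expressed, led by Arf1 (472 and 426 TPM), Copa (412 and 405 TPM) and Copb2 (377 and 367 TPM). Among p24 proteins and cargo receptors, which summed to 0.299% and 0.295%, Surf4 (326 and 345 TPM), the KDEL receptor gene Kdelr2 (315 and 328 TPM) and Tmed4 (281 and 271 TPM) were the highest. Tmed6 was listed at 0 with 0 counts in both libraries.

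**Figure D2:**
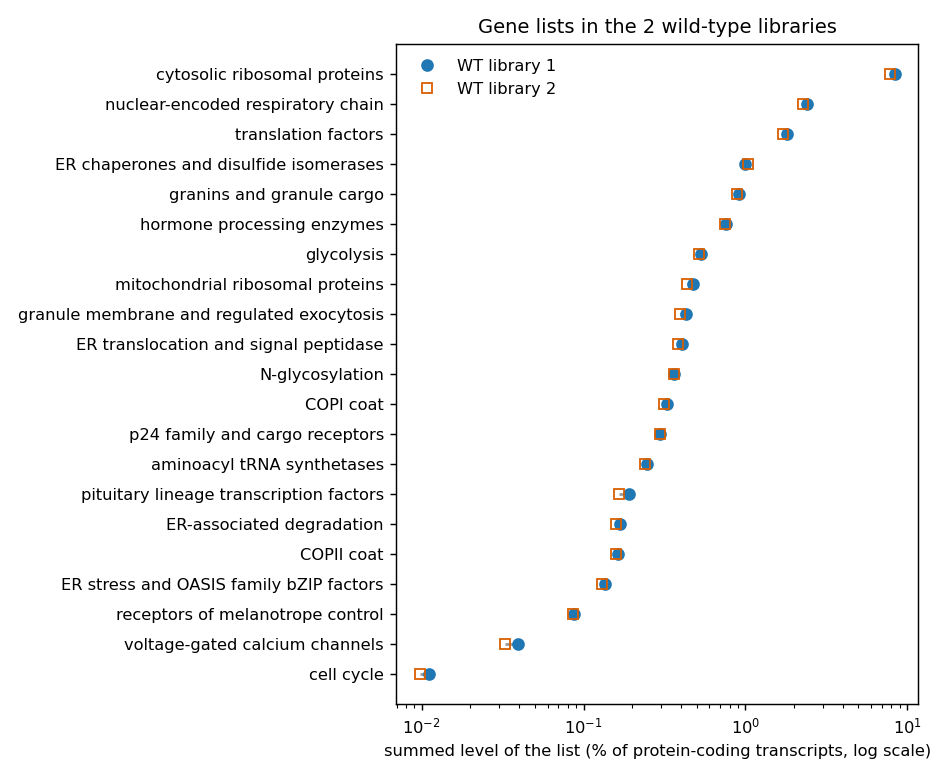
Summed level of the gene lists named on the vertical axis, a selection that leaves out cell type markers, immediate early genes and others, as percent of protein-coding transcripts on a log axis, for WT library 1 (filled blue circles) and WT library 2 (open orange squares), with a grey line joining them. The cytosolic ribosomal proteins stand at 8.38% and 7.89%, every other list plotted is under 3%, and cell cycle genes are the lowest plotted, at about 0.01%.

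The promoter windows of these secretory genes were read for short motifs. RefSeq windows matched 115 of the 139 genes. CCACG on either strand was in 72.2% of the matched windows, ACGTG in 54.8%, CCAAT in 49.6% and TATAAA in 2.61%. Over all 27025 genes' windows, the shares were 32.7%, 19.7%, 37.9% and 14.2% in the same order. ACGTG and CCACG overlap in CCACGTG. All gene types are in that background. Among the expressed protein-coding genes, 10361 of 13243 (78.2%) had a window, under 80% and so too few to stand for the set. In the windows they had, the shares were 47.5%, 25.3%, 38.3% and 6.84% in the same order, each nearer to that of the secretory genes than the share over all windows was. Over the 7 lists, ACGTG ranged from 6 of 14 N-glycosylation windows and 7 of 16 windows of p24 and cargo receptors to 10 of 16 COPI and 11 of 16 COPII windows. Only 17 of 24 translocation genes and 22 of 28 chaperone and isomerase genes had a window, also under 80%. ACGTG was in 5 of 12 windows of processing enzymes, about the share of the lowest of the 7 lists, and in 4 of 20 of granins and granule cargo. CCAAT and CCACG in the same direction with 9 bases between them, the spacing of the ER stress response element, was found in 9 of the 115 windows (7.83%) and in 35 of all 27025 (0.130%). This pattern was added after the first motif counts were seen. The 9 genes were Hspa5, Calr, Hsp90b1, Canx, Pdia6, Creld2, Dnajc3, Syvn1 and Derl3, which ranged from 6.30 TPM for Derl3 to 1993 TPM for Hspa5 in library 1. The pattern was therefore present in some of the highest and some of the lowest members. The Hspa5 window is printed as the most abundant gene that holds the pattern (RefSeq, GRCm38.p6, chr2:34771840-34772139, plus strand), with CCAAT, 65 bases before the start, and CCACG in capitals.
Hspa5: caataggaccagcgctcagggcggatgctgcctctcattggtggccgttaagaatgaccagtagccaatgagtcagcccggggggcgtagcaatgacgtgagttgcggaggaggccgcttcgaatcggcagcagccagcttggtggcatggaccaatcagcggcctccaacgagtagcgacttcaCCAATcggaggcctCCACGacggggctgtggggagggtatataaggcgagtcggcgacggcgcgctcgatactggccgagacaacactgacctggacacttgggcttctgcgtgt

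Downstream of the ER, the genes that process and store the hormone were nearly all expressed. Processing enzymes and their binding proteins summed to 0.757% and 0.748%, with all 15 at 1 TPM or more. Pcsk2, the convertase that releases the small melanotrope peptides, stood at 1567 and 2075 TPM, which was 5.27 and 8.15 times Pcsk1, the convertase that makes ACTH, at 297 and 255 TPM. Pcsk2 was higher in library 2, and its exons overlap 2 antisense genes. Pam, which amidates peptides, had 1367 and 1170.4 TPM, and Scg5, the chaperone of PC2, had 1346 and 1142 TPM. Pcsk1n, the inhibitor of PC1, had 415 and 412 TPM. The convertases of the general secretory pathway were low, with Furin at 24.6 and 28.2 TPM, Pcsk7 at 9.2 and 8 TPM and Pcsk5 at 2.3 and 2.35 TPM. Granins and other granule cargo, Pomc aside, made 0.913% and 0.893%, with 18 of 22 expressed. Besides Chga and Scg2, Chgb was at 833 and 839 TPM, Igfbp5 at 573 and 394 TPM and Scg3 at 243 and 248 TPM. Other peptide precursors were far lower. Nmb, for neuromedin B, had 58.4 and 68.2 TPM and Pdyn, for the dynorphins, 31.1 and 20.9 TPM. Gal, for galanin, had 10.7 and 28.2 TPM and was higher in library 2. Sst had 1.27 and 0.371 TPM, Adcyap1 and Vip were under 1 TPM in both libraries, and Nts was listed at 0 with 1 count in library 1. Exocytosis genes summed to 0.432% and 0.397%, with 41 of 42 expressed. The SNARE gene Snap25 led with 502 and 434 TPM. The granule membrane phosphatase genes Ptprn2 and Ptprn had 353 and 379 TPM and 330.4 and 389 TPM, and among synaptotagmins Syt4 (375 and 285 TPM) exceeded Syt1 (214 and 171 TPM). The granule GTPase gene Rab27a (195 and 169 TPM) was above Rab3a (102 and 109 TPM). Cplx1 was low (2.19 and 1.63 TPM) beside its paralog Cplx2 (77.3 and 52.5 TPM).

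Among bZIP factors and sensors of ER stress, 13 of 14 were expressed. Xbp1, which drives ER chaperone genes once its mRNA is spliced, had 344 and 339 TPM, Atf4 279 and 267 TPM and Creb3l2, a membrane-bound factor cut free in the Golgi, 235 and 203 TPM. The Xbp1 level was 1.46 and 1.67 times that of Creb3l2. Within the OASIS family, Creb3 followed at 121 and 135 TPM, while Creb3l1 (3.84 and 6.63 TPM) and Creb3l4 (3.74 and 3.52 TPM) were low and Creb3l3 was under 1 TPM. Atf6, another membrane-bound factor, was at 41.6 and 36.3 TPM. The protease gene Mbtps1 stood at 127 and 112 TPM and Mbtps2 at 8.71 and 6.2 TPM, and the kinase sensors Ern1 and Eif2ak3 at 36.6 and 42 TPM and 37.2 and 36.2 TPM. FPKM values do not show splicing or cleavage, so activity of these factors was not measured.

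Of 28 pituitary lineage factors, 22 were expressed. Tbx19, the factor required for the POMC lineages, was highest with 458 and 443 TPM. Pax7, which sets melanotrope identity, had 133 and 144 TPM. The homeobox genes Lhx3 (105 and 105 TPM) and Pitx1 (47.1 and 43.4 TPM) were also present. Neurod1, which marks anterior lobe corticotropes among POMC cells, was at 0.15 and 0.084 TPM. Pou1f1, the factor of growth hormone and prolactin cells, was at 5.73 and 6.09 TPM, so that Tbx19 exceeded it 80.0 and 72.8 times. Nr4a1, an orphan receptor induced by stimulation, had 425 and 249.6 TPM and was higher in library 1.

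Of 41 receptor genes for signals that reach melanotropes, 22 were expressed, a share not far from the 60.9% of all protein-coding genes, and the median was low, at 2.58 and 1.52 TPM. Drd2, the dopamine D2 receptor, stood apart with 299.7 and 354 TPM. The somatostatin receptor gene Sstr1 had 67.1 and 59.6 TPM and the growth factor receptor gene Igf1r 43.5 and 47.6 TPM, both far below Drd2. The receptors Glp1r (24.4 and 31 TPM), Casr (19.6 and 24.5 TPM) and Mc3r (18.2 and 20.3 TPM) were all at over 10 TPM. Crhr1, the receptor for corticotropin-releasing hormone, had 9.18 and 7.26 TPM. Avpr1b, the vasopressin receptor of corticotropes, was under 1 TPM (0.571 and 0.126 TPM), and Mc5r was listed at 0. Of 15 voltage-gated calcium channel genes 14 were expressed. The auxiliary subunit gene Cacna2d1 was highest (148 and 122 TPM), and of the pore-forming subunits Cacna1a (14.1 and 11.6 TPM), Cacna1d (14 and 11.4 TPM) and Cacna1i (12.9 and 10.2 TPM) were close to each other.

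Energy metabolism genes were expressed in full. All 74 nuclear-encoded respiratory chain genes were at 1 TPM or more in both libraries, with a sum of 2.4% and 2.26% and a median of 261 and 241 TPM. Atp5b, the beta subunit of the ATP synthase, led with 1429 and 1416 TPM, then Atp5e (1079.8 and 1127 TPM), Cox8a (1053 and 961 TPM) and Cox4i1 (940.5 and 891 TPM). All 20 glycolysis genes were expressed, with a sum of 0.532% and 0.519%. After Aldoa came Gapdh (678 and 761 TPM), Pkm (679 and 643 TPM) and Aldoc (538 and 409 TPM), which is also an astroglial marker. Ldha (232 and 210.0 TPM) exceeded Ldhb (101 and 83.9 TPM). The lobe held few transcripts of dividing cells. Cell cycle genes summed to 0.011% and 0.0098%, with 7 of 13 expressed, mostly Pcna (59.6 and 46.6 TPM) and Mcm2 (27 and 28.8 TPM). Mki67, a marker of cycling cells, was under 1 TPM (0.923 and 0.89 TPM).

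The label was checked against markers of melanotropes and of the other cell types that the dissection could hold. Of 10 melanotrope and POMC cell markers, 9 were expressed, and their sum was 22.3% and 29.1% of protein-coding transcripts, nearly all of it Pomc. The exception was Neurod1. Anterior lobe markers summed to 1.26% and 1.6% (mean 1.43% ± 0.24, SD, n = 2), with 12 of 14 expressed. Gh and Prl made up most of this sum, and Cga, the common subunit of the glycoprotein hormones, had 673 and 351 TPM. Lhb (78.6 and 79.1 TPM), Fshb (60 and 28.6 TPM) and Tshb (26.8 and 26.4 TPM), the specific subunits, were lower, and the lineage factors Pou1f1, Gata2 and Foxl2 were between 0.154 and 6.09 TPM. Hormone transcripts of the anterior lobe were thus present well above the transcription factors of the same cells. Pituitary stem cell and marginal zone genes made 0.101% and 0.101%, led by the keratin gene Krt18 (402 and 398 TPM), then by Cyp2f2, a cytochrome P450 gene (207 and 253 TPM), and the keratin gene Krt8 (223 and 209.9 TPM).

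All 16 pituicyte and astroglial markers were expressed, with a sum of 0.153% and 0.112% (mean 0.133% ± 0.029, SD, n = 2). Besides Aldoc they were led by Vim (200.4 and 168 TPM), Scn7a (223 and 131 TPM) and Col25a1 (190.1 and 122 TPM). Rax, a homeobox gene of tanycytes and pituicytes, had 44.8 and 37.2 TPM, and Gfap 36 and 24.2 TPM. Of 8 hypothalamic neurosecretory transcripts 3 were expressed. Oxt, oxytocin, had 467 and 379.6 TPM and Avp, vasopressin, 127 and 91.8 TPM, so Oxt was 3.67 and 4.14 times Avp. Otp and Sim1, transcription factors of the neurons that make these hormones, were at 0.2 and 0.202 TPM and 0.115 and 0.09 TPM, and Crh and Trh had at most 1 count in either library. The hormone mRNAs were thus well above the factors of the same neurons.

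All 14 endothelial markers were expressed and summed to 0.099% and 0.062%, of which Esm1 alone had 808 and 488 TPM and the next, Plvap, a protein of fenestrated endothelium, 40.6 and 29.9 TPM. Cldn5, a tight junction gene of the blood-brain barrier, was lowest (1.94 and 1.25 TPM). Fibroblast and mural markers made 0.076% and 0.049%, led by Dcn, decorin (381 and 237 TPM). Macrophage and microglia markers made 0.086% and 0.081%, with Cd74 (204 and 271 TPM) and the complement gene C1qa (165 and 146 TPM) highest. Of 9 oligodendrocyte markers 6 were expressed, led by Mbp (48.1 and 44.8 TPM). Of 8 lymphocyte markers 1 was, Nkg7 (1.49 and 2.38 TPM), and Cd3e was far under 1 TPM. Erythroid markers made 0.335% and 0.139%, almost all of it globin. The 4 Y-linked genes examined were expressed in both libraries and Xist had 14 and 13 counts.

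**Figure D3:**
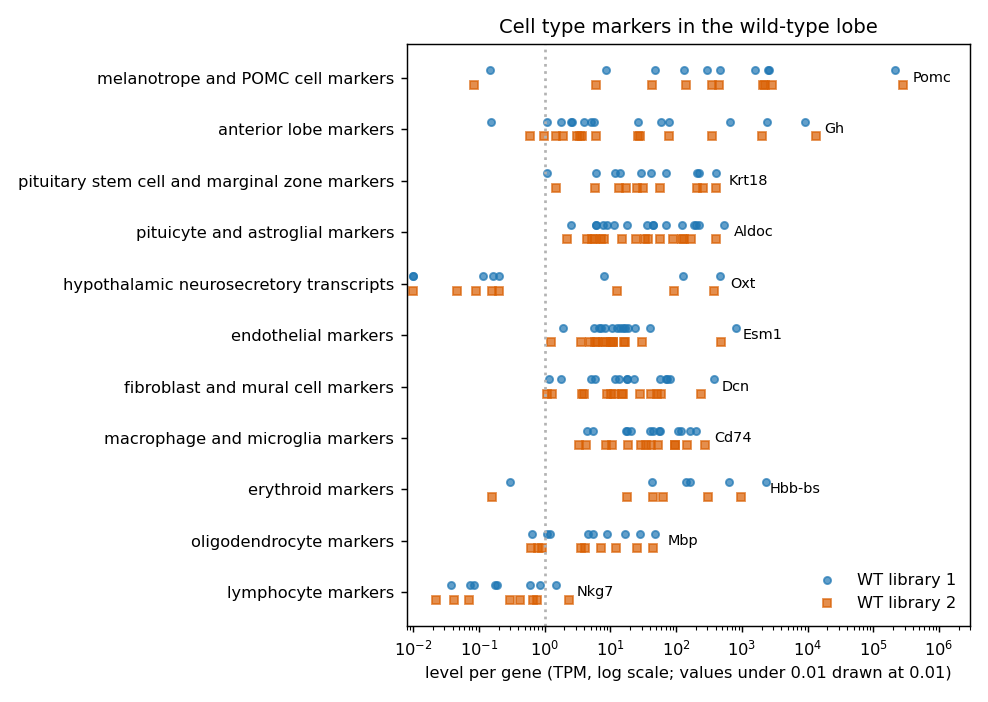
Level of each marker gene (TPM, log axis, values under 0.01 drawn at 0.01) by cell type list, for WT library 1 (blue circles) and WT library 2 (orange squares), with the highest gene of each list named and a dotted line at 1 TPM. Pomc stands at 215438 and 282458 TPM, far right of Gh, and lymphocyte markers lie near or below the dotted line.

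The libraries were similar but not identical. Over the 13243 expressed protein-coding genes, Spearman's rho between them was 0.989, a value across genes, which are not independent replicates. The counts were checked for a library deposited a second time. Their chi-square was 39.8 per degree of freedom over 15218 genes, so they are not copies within read-sampling noise and were counted as 2 samples. Separate pools exceed that noise in any case, so the value says nothing more about the size of their differences. With Pomc in the total, the median expressed gene was lower in library 2 by 0.17 on the log2 TPM scale (median log2 ratio of library 2 over library 1, -0.17), and with Pomc left out of the total this shift was -0.05. Ratios of list sums are therefore given with Pomc left out, a choice made after this shift was seen. On that scale 58.2% of expressed genes were higher in library 1.

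Erythroid markers were 2.2 times higher in library 1, and all 5 expressed members were higher there. Immediate early genes, which are induced within minutes of stimulation or handling, were 1.65 times higher in library 1, with 16 of 17 expressed members higher there. Junb had 634 and 202 TPM, Btg2 259 and 112 TPM and Dusp1 228 and 131 TPM, whereas Jun (20.2 and 19.4 TPM) was nearly equal. Endothelial markers were 1.46 times higher in library 1, with all 14 members, Esm1 included, higher there. Esm1 made 81.6% and 78.6% of their sum, and without it the ratio was 1.26. Fibroblast and mural markers were 1.42 times higher in library 1, and 1.38 times without Dcn. Without their highest member, erythroid markers were 2.06 times and immediate early genes 1.45 times higher in library 1. Leaving out the highest member of a list was chosen after seeing the data. Pituicyte and astroglial markers were 1.25 times higher, with 15 of 16 members on that side, and 1.28 times without Aldoc. In the other direction, ER chaperones and disulfide isomerases were 1.14 times higher in library 2, with 22 of 28 members on that side, and anterior lobe markers 1.39 times, which rested on Gh. Without Gh the anterior lobe sum was 1.20 times higher in library 1. Macrophage and microglia markers were split, with a sum 1.03 times higher in library 2 but 10 of 13 members higher in library 1. Blood, vessel, stromal, glial and stimulus-responsive transcripts thus leaned to the first pool, and Pomc, Pcsk2, Drd2 and Gh to the second. Of the 9 expressed melanotrope and POMC cell markers, 2, Scg2 and Gabra3, were higher in library 1. The part of dissection, blood content or handling in these differences was not tested.

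On counts scaled to library size, 2.47% of 11229 protein-coding genes with a mean of at least 200 counts were over 1.5-fold higher in library 1 and 0.579% over 1.5-fold higher in library 2. Pomc was in these totals, and the median log2 ratio of library 2 over library 1 was -0.11. With Pomc left out of the totals it was -0.04, and the shares were 1.65% and 0.891% of 11228 genes, while the counts for the lists named next did not change. Against these shares, 12 of 16 immediate early genes and 5 of 5 erythroid genes were over 1.5-fold higher in library 1. None of the 134 ER and secretory genes and none of the 78 cytosolic ribosomal protein genes passed 1.5-fold in either direction. The single genes farthest apart were not members of these lists. Bpifa2, which encodes a salivary gland secretory protein, had 520 counts in library 1 and 0 in library 2, at least 167-fold higher against a floor of 3 counts in library 2. Tpm3-rs7 (590 and 35 counts), Grin2b, an NMDA receptor subunit (362 and 52 counts), Unc13c (466 and 111 counts) and Errfi1 (7705 and 2123 counts) were the next on that side. On the other side were Gm15698 (101 and 647 counts), Msln, mesothelin (126 and 710 counts), Hapln4 (108 and 416 counts), Luzp2 (550 and 1705 counts) and Slc35d3 (159 and 481 counts). All but Errfi1 had under 2000 counts in each library.

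**Figure D4:**
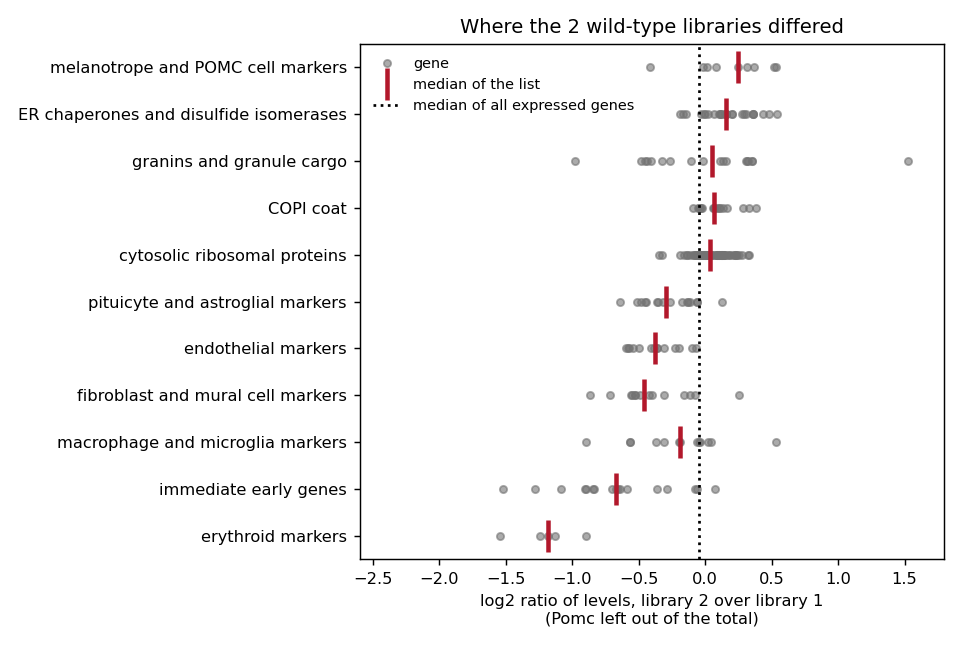
Log2 ratio of levels, WT library 2 over WT library 1, with Pomc left out of the total, for expressed members of each list (grey points), with the list median (red bar) and the median of all expressed genes (dotted line, -0.05). Erythroid markers have a median of -1.18 and immediate early genes of -0.67, while ER chaperones and disulfide isomerases have a median of 0.16.

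Levels depended on which deposited table they came from for a minority of genes. Of 9497 protein-coding genes at a mean of 10 TPM or more, 85.7% had an FPKM level within 2-fold of the level from counts per exon length, and Spearman's rho across genes was 0.822. For 86 genes the FPKM level was over 10 times the counted one, and for 0 genes the reverse held. The 10 TPM minimum was set on the FPKM level, which removes genes of the reverse kind beforehand. With the minimum set on the counted level instead, a choice made after seeing the data, 7 of 9268 genes were over 10 times higher by FPKM and 2, Gm11273 and Gm3625, over 10 times higher by counts. Of the 86, 13 had 0 counts in both libraries, among them Nme3 (127 and 119.7 TPM) and Mrpl53 (76.2 and 67.5 TPM). Tomm6, a subunit of the mitochondrial import channel, stood at 163 and 165 TPM with 1 count in library 1 and 0 in library 2. Ribosomal protein genes were also in this class. Rpl24 had 612 and 562 TPM and 8 and 6 counts, Rpl13a is described above, and Rps15a had 1405 and 1128 TPM and 9115 and 6793 counts. Over the 80 ribosomal protein genes compared, the FPKM level was a median of 1.81 times the counted one, against 1.02 over all genes compared. The counted level also falls as annotated exon length rises, and that length was 6270 bases for Rps15a and 1030 bases for Rpl24. HTSeq-count in its usual mode leaves out reads that fall on more than 1 gene. The part of exon length or of read assignment in these gaps was not tested. Outside the protein-coding set, 77 genes had 100 FPKM or more in both libraries, and 22 of these, immunoglobulin joining segments and snoRNAs, had 3 counts or fewer in each library.

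**Figure D5:**
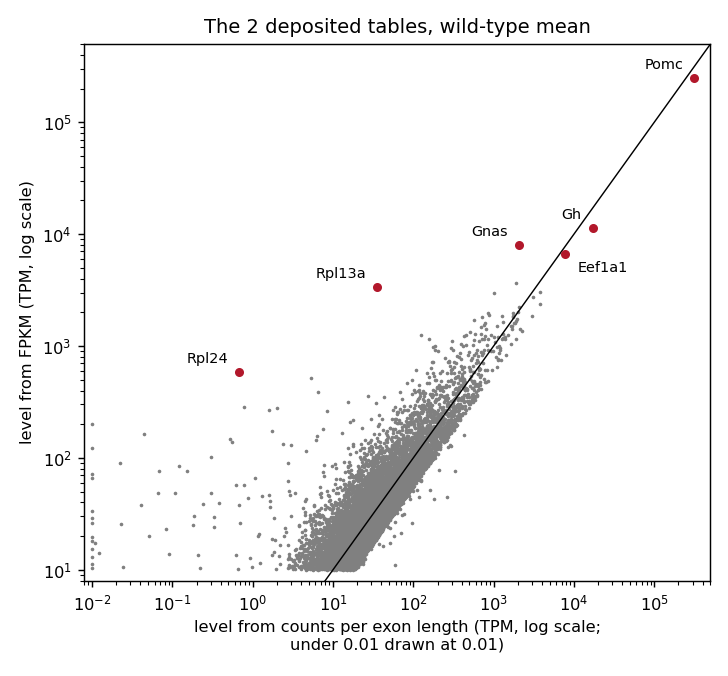
Mean level from FPKM against mean level from counts per annotated exon length (both TPM, log axes, counted values under 0.01 drawn at 0.01) for protein-coding genes at 10 TPM or more, with a line of equality and 6 genes named. Pomc, Gh and Eef1a1 lie near the line, Gnas lies above it, and Rpl13a and Rpl24 lie far above it.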

How the data were processed

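RNA from pools of 5 neuro-intermediate lobes was sequenced, and the labels and the study's methods describe ribosomal RNA depletion and a stranded mRNA kit, respectively, so the enrichment step is not certain. The deposited gene counts are raw: per the study's methods, the authors used Trimmomatic for trimming, Tophat for alignment to mm10 and HTSeq-count for the gene counts. The annotation release and the strand setting are not given in the sources used here. The deposited FPKM values were made by the authors, and the study's software list names cufflinks without tying it to that table. They list 48462 loci, and loci of the same gene were summed.

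From these, FPKM were rescaled to TPM over protein-coding genes of GENCODE M21 (GRCm38), and shares of counts, list sums and ratios were computed in Python 3.11.15 with pandas 2.3.3. Of 48526 genes, 382 had no type there and held under 0.03% of counts. Lists matched 844 of 849 entries. The genes named are the 30 highest by TPM, the 10 highest by counts, the highest members of each list with low defining ones, and the 5 farthest apart between libraries in each direction. Some genes are not reported here. Others were named after their values were seen. The members and lists were chosen with earlier results of these data known. No groups were compared, so no test between groups was run. The steps from counts were run on simulated counts drawn with the same exon lengths, so the recovery of levels was built in. The TPM values come from FPKM and were not tested that way. Alternatives were the scale, the denominator, the minimum level, loci per gene and leaving out a library.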

Additional observations from a re-analysis of the deposited data

How the results depend on the processing

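With 2 libraries, leaving out 1 cannot move a share beyond 1 SD, so that setting does not test stability. The Pomc share of transcripts ranged from 21.5% to 28.2% under it. The count of expressed genes ranged from 9189 to 15233 over the minimum levels and stayed within 1.5 times of 13243 under every alternative run. Taking the highest locus per gene moved nothing beyond 1 SD. Computed from counts divided by exon length, the shares were 31.2% for Pomc, 35.7% for the 10 most abundant genes, 4.65% for ribosomal proteins, 2.69% for ER and secretory lists, 1.77% for granule cargo and processing enzymes and 1.99% for anterior lobe markers. With all genes in the denominator they were 15.6%, 18.3%, 5.07%, 1.69%, 0.929% and 0.893% in that order, and 0.0822% for pituicyte markers. With Pomc left out of the denominator, the 10 most abundant genes held 6.19%, ribosomal proteins 10.8%, ER and secretory lists 3.62%, granule cargo and processing enzymes 1.99%, anterior lobe markers 1.92% and pituicyte markers 0.175%, which follows from the smaller total. Leaving out anterior lobe markers, an alternative chosen after seeing the data, gave 2.75% for ER and secretory lists. Without small non-coding RNA genes and ribosomal RNA genes the non-coding share of counts was 2.06%. The SD over 2 libraries was as small as 0.0042 percentage points for the ER and secretory lists, so small moves pass it. Among alternatives chosen after seeing the data, leaving Pomc out of the library totals gave 100 genes over 1.5-fold higher in library 2 in place of 65, and 185 in place of 277 in library 1. Counts per exon length gave 7 ribosomal protein genes among the 30 most abundant in place of 14. No paired analysis was possible because no groups were compared and no result came from a test. With 2 pools the spread between animals is not measured.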

Other observations

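Imprinted genes, a group chosen after their values were seen, are given as a description only, since the choice favours high values. Of 25 protein-coding ones, 23 were at 1 TPM or more and 8 at 100 TPM or more in both libraries, while 60.9% and 6.16% of all protein-coding genes were. Gnas was highest. Mest, which encodes a hydrolase-like protein, stood at 1122 and 856 TPM and Peg3, a zinc finger gene, at 504 and 363 TPM. Rian, a maternally expressed lncRNA, had 10699 and 8135 counts, while Meg3, from the same cluster, had 1715 and 1228 counts. Nnat, neuronatin, had 296 and 397 TPM, and H19 only 196 and 135 counts. Mest and Peg3 were higher in library 1 and Nnat in library 2.

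Histone genes of the replication-dependent clusters, also chosen after their values were seen, were expressed at sizeable levels beside few cell cycle transcripts. Of 65 listed, 53 were at 1 TPM or more in both libraries. They summed to 5355 and 5545 TPM, and from counts per exon length to 5019 and 5090 TPM, so both tables gave like sums. Hist1h4d (1270.3 and 1312 TPM) and Hist1h4c (1081 and 1167 TPM) were highest, whereas Mki67 stood at 0.923 and 0.89 TPM and Top2a at 3.77 and 1.78 TPM. Members of these clusters are near-identical in sequence, so their single values are uncertain. Most of their mRNAs carry no poly(A) tail, and the part of the enrichment step was not tested.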
